A study of Arabidopsis thaliana with 12 samples.

Results

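The mRNAs described here are those of 39 nuclear genes of *Arabidopsis thaliana* that encode Rubisco small subunits, Rubisco activase, the enzymes of the Calvin cycle, the small regulatory protein CP12 and the enzymes of photorespiration. They were chosen by function, and a gene was taken as measured where its locus was found in the annotation of a probe set. This was so for 35 of the 39, each with a single probe set, among 22746 probe sets tested. *RBCS1B*, *RBCS2B*, *RBCS3B* and *GOX1* were not found by locus. Probe sets of *RBCS1A* (AT1G67090), *PGLP1* (AT5G36700) and *GOX2* (AT3G14415) belong to a class that may hybridize to more than 1 transcript.

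The ribosome loading of mRNAs was compared between seedlings with and without an intact gene for eIF3k, a peripheral subunit of translation initiation factor eIF3. Seedlings of ecotype Columbia were either wild-type (WT) or carried the *eif3k* allele, 1 T-DNA line with its insertion in the last intron of the gene, for which the study describes a transcript truncated at its 3′ end. All seedlings grew on a medium with 1% sucrose, and aerial tissue was harvested at 11 days of age. The sample labels place the harvest 4 h after lights came on, whereas the methods of the study state continuous light for the *eif3k* mutant. Lysates were spun through sucrose gradients, and each gradient gave a non-polysomal pool (NP) from its upper 6 fractions and a polysomal pool (PL) from its lower 6, for 12 ATH1 arrays, 3 for each genotype and fraction. The log2 translation state (TL) is log2 PL minus log2 NP of the same replicate, and the signal level is the average of these log2 signals. All arrays were scaled together, so a TL of 0 is not the point at which an mRNA is shared evenly by the pools.

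In the Calvin cycle, Rubisco fixes carbon dioxide onto ribulose bisphosphate, a kinase and a dehydrogenase reduce the product to triose phosphate, and aldolases, phosphatases, transketolases, isomerases and phosphoribulokinase regenerate the acceptor. When Rubisco reacts with oxygen instead, it forms phosphoglycolate, which photorespiration recycles through chloroplast, peroxisome and mitochondrion, with release of ammonium that the chloroplast assimilates again. Many of these genes are among the most strongly expressed nuclear genes of green tissue.

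The PL array of WT replicate 3 stood apart from the other 11 arrays, and the comparisons that rest on it are also given without that sample. Its log2 signals had an SD of 1.94 (2.15 to 2.29 elsewhere), and its 3′ probe set exceeded the 5′ probe set by 8.98 for the control gene GAPDH (5.56 to 7.97 elsewhere) and by 3.54 for ubiquitin (1.70 to 2.92 elsewhere). For the control gene actin the excess was 6.78, inside the range of the other arrays (6.34 to 7.44). The arrays of replicate 3 belonged to a different array batch from those of replicates 1 and 2. Of 8 shoot markers 6 were found, 5 of them at a mean log2 signal of at least 5. The summed linear signal of these markers in PL was 2039 in WT replicate 3 and 5297 and 6440 in the other WT samples. In *eif3k* the sum in PL was 6092 to 8797. In NP it was 3512 to 3980 in WT and 3447 to 6159 in *eif3k*. Not all of these markers shared the fall of the sum in PL. *CA1* had log2 PL signals of 12.3, 11.88 and 8.79 in WT replicates 1, 2 and 3. In every PL sample but WT replicate 3 it was the brightest of these markers, and most of the sum came from it. *MYB60*, *SUC2* and *ATML1* were also lowest in replicate 3 of WT. *PDF1* (9.66, 9.83 and 10.13) and *AS1* (7.68, 7.5 and 8.49) were highest there. All 10 root markers were found and none reached a mean log2 signal of 5 (summed linear signal over PL and NP arrays of 51.7 to 68.0 and 51.9 to 54.2 in WT and *eif3k*, apart from 79.95 in PL of WT replicate 3). The disrupted gene *eIF3k* (AT4G33250) had NP signals of 9.01 to 9.45 in WT and 7.30 to 8.05 in the mutant, and PL signals of 7.28 to 8.89 and 7.06 to 7.63.

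In 5 of the 6 samples, all but WT replicate 3, the mRNAs differed from each other in TL more than any of them differed between samples. The SD of TL over these 5 samples had a median of 0.23 per mRNA, whereas the means of the 35 mRNAs had an SD of 0.70. TL lay above 0 in all 5 samples for 20 of the 35 mRNAs (57.1%, against 37.9% of the 7182 probe sets whose mean log2 signal was at least 5, called brighter probe sets here, and 47.7% of the 816 with a mean of at least 9, a level that most of these mRNAs reach). It lay below 0 in all 5 for 3 mRNAs (8.57%, against 29.9% and 29.4%). The order was much the same in the 10 pairs of these samples, with Spearman's rho over the 35 mRNAs between 0.76 and 0.97. In the 5 pairs that hold WT replicate 3, rho was 0.29 to 0.46. These coefficients describe mRNAs measured on the same arrays, which are not independent of each other.

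**Figure D1:**
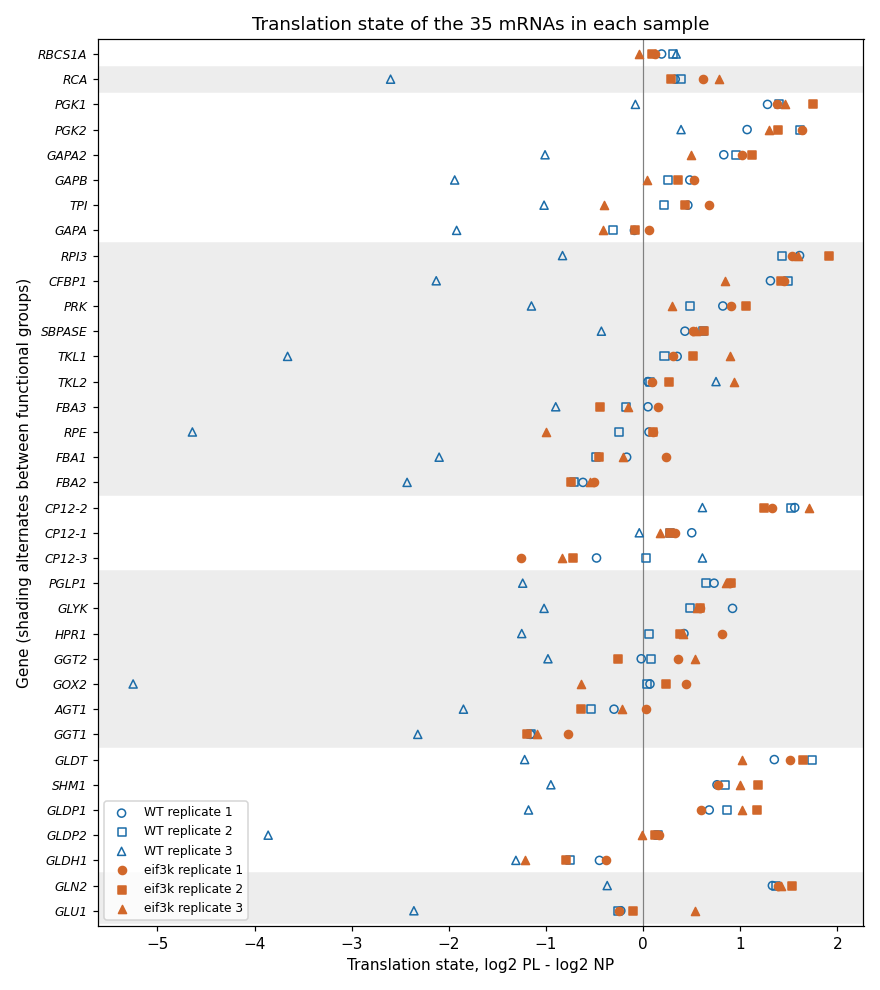
Log2 translation state (PL minus NP signal, horizontal axis) of each of the 35 mRNAs (rows, grouped by function) in 3 WT samples (open symbols) and 3 *eif3k* samples (filled symbols). For 32 of the 35 mRNAs WT replicate 3 (open triangles) lies below all other samples.

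High TL was not confined to 1 branch of the pathways. *CP12-2* (AT3G62410), which encodes a form of the protein that ties glyceraldehyde phosphate dehydrogenase and phosphoribulokinase into an inactive complex in the dark, had a TL of 1.56, 1.52 and 0.61 in WT replicates 1, 2 and 3 and of 1.33, 1.24 and 1.71 in *eif3k*. *PGK2* (AT1G56190), a chloroplast phosphoglycerate kinase, had a TL of 1.07, 1.61 and 0.39 in WT and 1.64, 1.39 and 1.30 in *eif3k*. *RPI3* (AT3G04790), a ribose phosphate isomerase, had a TL of 1.61, 1.43 and -0.83 in WT and 1.53, 1.91 and 1.59 in *eif3k*. These are the mRNAs with the highest mean TL over the 6 samples, and in each the value of WT replicate 3 is the lowest. *GLN2* (AT5G35630), the chloroplast glutamine synthetase that takes up photorespiratory ammonium, was the most even of the high group, with a TL of 1.33, 1.37 and -0.37 in WT and 1.39, 1.53 and 1.42 in *eif3k*. Its SD over the 5 samples was 0.08.

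Low TL was likewise spread over the pathways. *GGT1* (AT1G23310), a peroxisomal glutamate:glyoxylate aminotransferase, had the lowest mean TL, with -1.16, -1.15 and -2.32 in WT and -0.77, -1.20 and -1.09 in *eif3k*. *FBA2* (AT4G38970), a chloroplast aldolase, had a TL of -0.62, -0.71 and -2.43 in WT and -0.51, -0.74 and -0.55 in *eif3k*. *GGT1*, *FBA2* and *GLDH1* (AT2G35370), an H protein of glycine decarboxylase, were the 3 mRNAs whose TL was below 0 in all samples. For *RPE* (AT5G61410), ribulose phosphate epimerase, the low mean of -0.94 came mostly from WT replicate 3. Without that sample the mean was -0.20, and *eif3k* replicate 3 was the lowest of the others. Its TL was 0.06, -0.25 and -4.64 in WT and 0.10, 0.10 and -1.0 in *eif3k*.

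Tested against 0 in limma, with a call at an adjusted p under 0.05 and a TL of at least 1 in size, 1 mRNA was called in WT and 2 in *eif3k*. In WT *GGT1* was called lower, with a mean TL of -1.54 (SE 0.27, adjusted p = 0.0492), among 2.82% of all probe sets called lower and 2.01% called higher. In *eif3k* *PGK2* was called higher at 1.44 (SE 0.24, adjusted p = 0.0452), as was *CP12-2* at 1.43 (SE 0.23, adjusted p = 0.0397), among 2.18% of all probe sets called higher and 2.55% called lower. Among the 816 probe sets with a mean log2 signal of at least 9, WT had 11.4% called higher and 7.6% lower. In *eif3k* these shares were 10.3% and 8.58%. Of the 35 mRNAs, 2.86% were called lower in WT and 5.71% higher in *eif3k*. With the replicate number as a block no mRNA was called in either genotype. Leaving out any 1 of the 5 other samples also left none called, and leaving out WT replicate 3 raised the number to 8.

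Without WT replicate 3, the same 8 mRNAs were called in WT (n = 2) and in *eif3k* (n = 3), 7 of them higher and 1 lower. The higher ones were *PGK1*, *PGK2*, *CFBP1*, *RPI3*, *CP12-2*, *GLDT* and *GLN2*, with TL from 1.34 to 1.55 in WT and from 1.24 to 1.68 in *eif3k*. *CFBP1* (AT3G54050), the chloroplast fructose bisphosphatase, had a TL of 1.31, 1.49 and -2.13 in WT and 1.45, 1.42 and 0.84 in *eif3k*. *GLDT* (AT1G11860), the T protein of glycine decarboxylase, had 1.35, 1.74 and -1.22 in WT and 1.51, 1.65 and 1.02 in *eif3k*, and *PGK1* (AT3G12780), a further chloroplast phosphoglycerate kinase, had 1.28, 1.40 and -0.08 in WT and 1.38, 1.75 and 1.46 in *eif3k*. In all 3 the value of WT replicate 3 lay below the others. The lower one was *GGT1*, at -1.16 (SE 0.12) in WT and -1.02 (SE 0.10) in *eif3k*. Of all probe sets, 3.76% were called higher and 3.06% lower in WT, and 4.59% and 3.66% in *eif3k*. Among the 816 probe sets with a mean log2 signal of at least 9, the shares called higher were 18.9% in WT and 17.6% in *eif3k*, against 20% (7 of 35) of the mRNAs described here. The shares called lower were 8.58% in WT and 11.9% in *eif3k*, against 2.86% (1 of 35). Without replicate 3 of both genotypes, 3 mRNAs were called in WT and 6 in *eif3k*, all higher, among 2.18% of all probe sets called higher and 1.67% lower in WT, and 2.48% and 1.68% in *eif3k*.

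The 2 branches of carbon metabolism held both loaded and less loaded mRNAs, step by step. Among the genes of the reduction phase, mean TL over the 5 samples ran from -0.17 for *GAPA* (AT3G26650) to 1.45 for *PGK1*. *GAPA* encodes the A subunit of chloroplast glyceraldehyde phosphate dehydrogenase, and its TL was -0.09, -0.31 and -1.92 in WT and 0.06, -0.08 and -0.41 in *eif3k*. *GAPB* (AT1G42970), which encodes the B subunit, had a TL of 0.48, 0.26 and -1.94 in WT and 0.52, 0.36 and 0.04 in *eif3k*. *GAPB* was thus above *GAPA* in 5 of the 6 samples, all but WT replicate 3.

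Among the genes of regeneration, mean TL over the 5 samples ran from -0.63 for *FBA2* to 1.61 for *RPI3*. *SBPASE* (AT3G55800), sedoheptulose bisphosphatase, was one of the steadiest, with a TL of 0.43, 0.62 and -0.43 in WT and 0.51, 0.63 and 0.54 in *eif3k*. *PRK* (AT1G32060), phosphoribulokinase, had a TL of 0.82, 0.48 and -1.15 in WT and 0.90, 1.06 and 0.30 in *eif3k*. *FBA1* (AT2G21330), a further chloroplast aldolase, had a TL of -0.17, -0.49 and -2.10 in WT and 0.23, -0.45 and -0.21 in *eif3k*. All 3 had their lowest value in WT replicate 3. *RCA* (AT2G39730), Rubisco activase, which clears inhibitory sugar phosphates from Rubisco, followed the same pattern, with a TL of 0.33, 0.39 and -2.60 in WT and 0.62, 0.29 and 0.78 in *eif3k*.

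In the chloroplast and peroxisome part of photorespiration, mean TL over the 5 samples ran from -1.07 for *GGT1* to 0.80 for *PGLP1*, the phosphoglycolate phosphatase that opens the pathway. *PGLP1* had a TL of 0.73, 0.65 and -1.24 in WT and 0.89, 0.90 and 0.85 in *eif3k*. *HPR1* (AT1G68010), the peroxisomal hydroxypyruvate reductase, had a TL of 0.42, 0.06 and -1.25 in WT and 0.81, 0.38 and 0.41 in *eif3k*. *GOX2*, a glycolate oxidase, had 0.07, 0.04 and -5.25 in WT and 0.44, 0.23 and -0.64 in *eif3k*, and its value in WT replicate 3 was the lowest TL of any of the 35 mRNAs in any sample.

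In the mitochondrial part the mRNAs for subunits of glycine decarboxylase were spread widely. The mean TL over the 5 samples was 1.45 for *GLDT* and -0.72 for *GLDH1*, subunits of 1 complex. *GLDP1* (AT4G33010), a P protein, had a TL of 0.68, 0.86 and -1.18 in WT and 0.60, 1.17 and 1.02 in *eif3k*. *SHM1* (AT4G37930), the serine hydroxymethyltransferase that works beside the complex, had a TL of 0.76, 0.84 and -0.95 in WT and 0.77, 1.18 and 1.00 in *eif3k*. *GLU1* (AT5G04140), the ferredoxin-dependent glutamate synthase that acts after *GLN2*, had a TL of -0.23, -0.26 and -2.36 in WT and -0.25, -0.10 and 0.53 in *eif3k*.

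WT replicate 3 had the lowest TL of the 6 samples for 32 of the 35 mRNAs (91.4%), against 55.2% of the brighter probe sets. No other sample was lowest for more than 1 of the 35. The median TL of the 35 mRNAs was 0.42 and 0.26 in WT replicates 1 and 2, -1.18 in WT replicate 3, and 0.51, 0.36 and 0.49 in *eif3k*. For the brighter probe sets the medians were 0.05, 0.12 and -0.44 in WT and 0.11, 0.11 and 0.03 in *eif3k*.

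**Figure D2:**
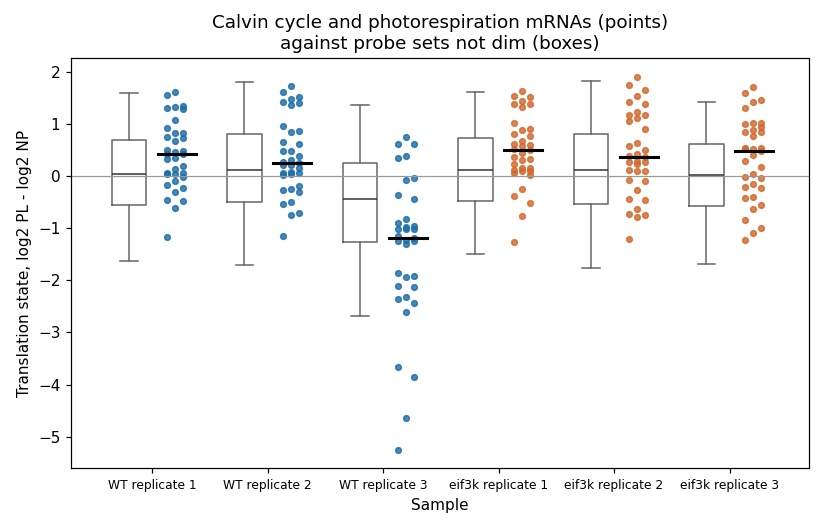
Log2 translation state in each of the 6 samples. Points are the 35 mRNAs with their median as a thick line, and boxes give the quartiles of the 7182 brighter probe sets (mean log2 signal of at least 5), with whiskers at their 5th and 95th percentiles. The median of the points falls to -1.18 in WT replicate 3 and lies between 0.26 and 0.51 in the other samples.

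The fall was in the PL array and not in the NP array. Against the mean of WT replicates 1 and 2, the PL signal of WT replicate 3 was lower for 34 of the 35 mRNAs with a median of -1.58, and lower by 1 or more for 28 of them (80%, against 38.1% of brighter probe sets, whose median was -0.67). The NP signal moved by a median of -0.08 (-0.15 for brighter probe sets) and by 1 or more downward for none of the 35. In *eif3k* replicate 3, of the same array batch, PL was lower than in replicates 1 and 2 for 16 of the 35 mRNAs and by 1 or more for none.

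The size of the fall differed widely between mRNAs. *GOX2* had PL signals of 9.74, 9.59 and 3.94 in WT and NP signals of 9.67, 9.55 and 9.19. *RPE* had PL signals of 11.23, 11.08 and 6.68 in WT and NP signals of 11.17, 11.33 and 11.32. These had the largest differences of log2 PL from the mean of WT replicates 1 and 2, -5.725 and -4.475, followed by *GLDP2* (-3.805), *CFBP1* (-3.62) and *TKL1* (-3.465), a transketolase. The exception among the 35 was the dim *CP12-3*, whose PL signal was higher by 0.60. For each of the 35 mRNAs the fall was taken as the TL of WT replicate 3 minus the mean TL of the other 5 samples. It had a Spearman's rho of -0.05 with the mean signal and of -0.21 with that mean TL. Pearson's r was -0.20 and -0.15. Both means share values with the fall, so these coefficients do not decide what its size depended on. The part that the quality of this array plays in these values was not tested.

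**Figure D3:**
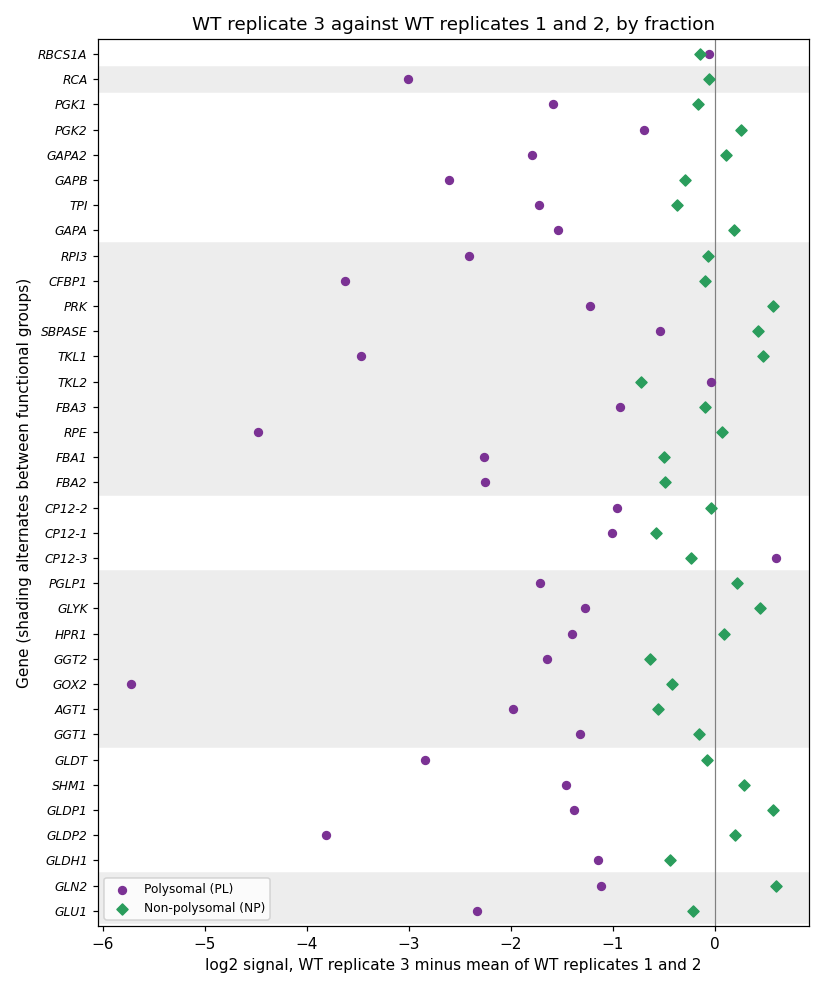
Log2 signal of WT replicate 3 minus the mean of WT replicates 1 and 2 for each of the 35 mRNAs, in the polysomal (circles) and the non-polysomal fraction (diamonds). PL lies below 0 for 34 mRNAs with a median of -1.58, while the NP values scatter about a median of -0.08.

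Between the genotypes none of the 35 mRNAs was called in TL. Nominally 33 of 35 had a higher mean TL in *eif3k* than in WT, as did 65.9% of brighter probe sets. The median difference was 0.66 with a range from -0.99 to 1.72, while it was 0.19 over brighter probe sets and 0.00 over all. In limma 0% of the 22746 probe sets was called in either direction. At an unadjusted p under 0.05 there were 2 of the 35 mRNAs, against 2.69% of all probe sets, and the smallest adjusted p was 0.823. A fit of the interaction over the 12 arrays called none of the 35 either. For 4 of the 35 mRNAs (11.4%) the 3 values of one genotype lay all above those of the other. This was so for 6.71% of all probe sets and 10.4% of brighter ones.

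These differences rested on WT replicate 3. Without it the median difference was 0.07 (-0.01 for brighter probe sets) and the range was -0.72 to 0.37. Then 20 of the 35 mRNAs were above 0, against 48.5% of brighter probe sets. In array batch 1, replicates 1 and 2 of both genotypes, the median was 0.12 (0.03 for brighter probe sets). There 28 of 35 were above 0, against 3915 of the 7182 brighter probe sets. In batch 2, a single pair that holds WT replicate 3, it was 1.63 (0.46). Centred in each sample on the median of the brighter probe sets, the median difference over all 6 samples was 0.49.

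**Figure D4:**
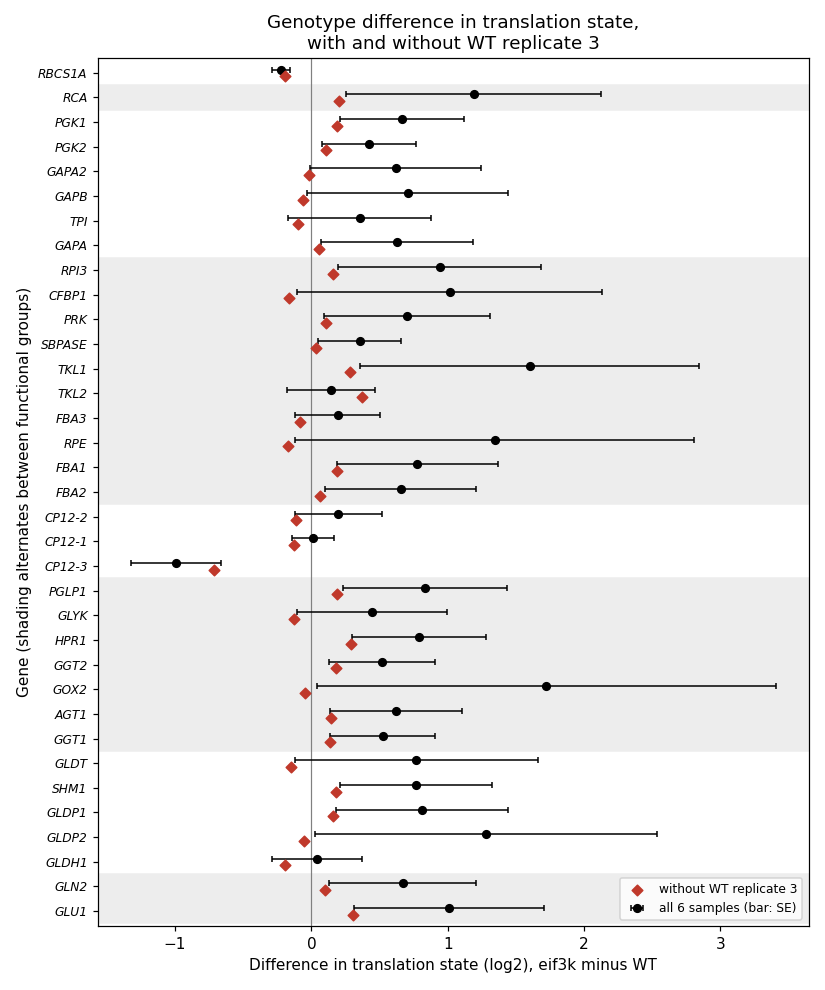
Difference in log2 translation state, *eif3k* minus WT, for each of the 35 mRNAs. Circles use all 6 samples (bars are the SE from limma), and diamonds leave out WT replicate 3. Most circles lie to the right of 0 with a median of 0.66, while the diamonds have a median of 0.07.

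The 3 mRNAs with the smallest p in TL were *RBCS1A*, *CP12-3* and *HPR1*. *RBCS1A*, a Rubisco small subunit, had a TL of 0.19, 0.31 and 0.34 in WT and 0.12, 0.09 and -0.04 in *eif3k*, so the groups did not overlap and the mutant was lower in 3 of 3 pairs. The difference was -0.22 (SE 0.06, adjusted p = 0.823 in limma) and was -0.19 without WT replicate 3. In NP this mRNA had 14.60, 14.54 and 14.43 in WT against 14.73, 14.71 and 14.90 in *eif3k*, a difference of 0.26 (SE 0.07, adjusted p = 0.876). In PL the 6 values spanned only 0.09, from 14.77 to 14.86, near the highest signal of all probe sets tested, 15.26. This was the only measured mRNA of the 35 with a lower mean TL in the mutant apart from *CP12-3*.

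*CP12-3* (AT1G76560), a further CP12 gene, had a TL of -0.48, 0.03 and 0.61 in WT and -1.26, -0.72 and -0.84 in *eif3k*. The mutant values all lay below those of WT, with a difference of -0.99 (SE 0.33, adjusted p = 0.823) and of -0.72 without WT replicate 3. Its signals were dim. NP was 4.71, 4.22 and 4.23 in WT and 5.49, 4.53 and 5.05 in *eif3k*, a difference of 0.64 (adjusted p = 0.876), and PL was 4.23, 4.25 and 4.84 in WT and 4.23, 3.81 and 4.21 in *eif3k*. With a mean under 5 it is 1 of 2 among the 35, with the transketolase gene *TKL2*, that falls under the minimum for brighter probe sets. The related *CP12-1* (AT2G47400) had a TL of 0.50, 0.28 and -0.04 in WT and 0.33, 0.28 and 0.17 in *eif3k*, a difference of 0.01 (SE 0.15) that was -0.13 without WT replicate 3.

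*HPR1* differed by 0.79 in TL (SE 0.49, adjusted p = 0.823), and by 0.29 without WT replicate 3. It was higher in the mutant in 3 of 3 pairs. In NP its signals of 11.52, 11.59 and 11.65 in WT and 11.10, 11.42 and 11.38 in *eif3k* did not overlap, and the difference of -0.29 (SE 0.10) had an adjusted p of 0.876. *PGLP1* and *GLN2* had all 3 mutant TL values above those of WT, by margins of 0.12 and 0.02 between the highest WT and the lowest mutant value.

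In signal level none of the 35 mRNAs was called, against 0.0044% of all probe sets called higher (1 probe set) and 0% lower. At an unadjusted p under 0.05 there were 2, *RBCS1A* and *PRK*, against 2.92% of all probe sets. All 35 had a higher mean level in *eif3k*, as did 71.9% of brighter probe sets, with a median of 0.36 (0.15 for brighter probe sets). Without WT replicate 3 the median was 0.06 with 19 of 35 above 0 (51.1% of brighter probe sets). *PRK* had levels of 11.24, 11.06 and 10.83 in WT and 11.38, 11.41 and 11.90 in *eif3k*, which do not overlap, a difference of 0.52 (SE 0.19, adjusted p = 0.818) and of 0.41 without WT replicate 3. *RBCS1A* had levels of 14.70, 14.70 and 14.60 in WT and 14.79, 14.76 and 14.88 in *eif3k*, a difference of 0.14 (SE 0.05, adjusted p = 0.818) and of 0.11 without WT replicate 3. *GLN2*, next in p, had 11.14, 11.15 and 10.89 in WT and 11.14, 11.39 and 11.54 in *eif3k*, a difference of 0.30 (SE 0.14) and of 0.21 without WT replicate 3. In such bulk samples the number of green cells and the mRNA per cell cannot be told apart. The summed signal of the shoot markers given above overlapped between the genotypes in PL and in NP, but it does not measure the number of green cells.

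In PL none was called, with 0% of all probe sets called in either direction and none of the 35 mRNAs at an unadjusted p under 0.05. The median difference was 0.69 (0.24 for brighter probe sets) and 0.04 without WT replicate 3. Values of the genotypes did not overlap for 6 of the 35 mRNAs (17.1%), all higher in the mutant. The share was 6.13% of all probe sets and 10.2% of brighter ones. Without WT replicate 3 the number was again 6, against 10.9% of all probe sets. *PRK* had PL signals of 11.65, 11.30 and 10.25 in WT and 11.83, 11.94 and 12.05 in *eif3k*, a difference of 0.87 (SE 0.40, adjusted p = 0.817) and of 0.47 without WT replicate 3. *PGK2* had 8.59, 8.81 and 8.01 in WT and 8.91, 8.96 and 9.77 in *eif3k*, and *GLDH1* had 10.34, 10.15 and 9.10 in WT and 10.44, 10.43 and 11.18 in *eif3k*. In both, all mutant values lay above those of WT, by less than the spread within a genotype.

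In NP none was called either, with 0% of all probe sets called in either direction and 2 of the 35, *RBCS1A* and *HPR1*, at an unadjusted p under 0.05 (3.17% of all probe sets). The median difference was 0.03 (0.06 for brighter probe sets), with 19 of 35 above 0. Without WT replicate 3 it was 0.04, with 18 of 35 above 0. All 7 genes of the chloroplast and peroxisome part of photorespiration had a lower mean NP signal in *eif3k*, by 0.03 to 0.29, and without WT replicate 3 this held for 5 of the 7.

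Some related genes had TL apart in the same direction in every sample. Of 16 pairs chosen for comparison, with earlier results of these data known, 12 had a probe set for each gene. In 6 of the 12 pairs all 6 samples differed in the same direction, which gives the smallest p that an exact sign-flip permutation test of 6 samples allows (0.0313, two-sided), and after adjustment over the 12 pairs these had an adjusted p of 0.0625. An adjusted p under 0.05 would need at least 8 of the 12 pairs at that smallest p, a number reached after a further quantile normalization of the arrays, so it gives no measure of any 1 pair and the pairs are described by their values. *GAPA* was below its close relative *GAPA2* (AT1G12900) by 0.92, 1.27 and 0.91 in WT and by 0.96, 1.2 and 0.90 in *eif3k*, a mean of -1.03 ± 0.16 (SD, n = 6). *GGT1* was below *GGT2* (AT1G70580) by 1.14, 1.23 and 1.34 in WT and by 1.13, 0.94 and 1.62 in *eif3k*, a mean of -1.23 ± 0.23 (SD, n = 6). In both pairs WT replicate 3 lay within the range of the other samples.

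*GLDP1* exceeded *GLDP2* (AT2G26080), the other P protein gene, by 0.54, 0.71 and 2.68 in WT and by 0.44, 1.05 and 1.03 in *eif3k*. Here the mean of 1.08 ± 0.82 (SD, n = 6) fell to 0.75 ± 0.28 (SD, n = 5) without WT replicate 3. *CP12-1* was below *CP12-2* by 1.06, 1.24 and 0.65 in WT and by 1.00, 0.96 and 1.54 in *eif3k*, a mean of -1.08 ± 0.30 (SD, n = 6) and of -1.16 ± 0.24 (SD, n = 5) without WT replicate 3. Among the aldolases, *FBA1* exceeded *FBA2* by 0.45, 0.22 and 0.33 in WT and by 0.74, 0.29 and 0.34 in *eif3k*, and *FBA2* was below *FBA3* (AT2G01140) by 0.67, 0.53 and 1.53 in WT and by 0.66, 0.30 and 0.39 in *eif3k*, a mean of -0.68 that was -0.51 without WT replicate 3. *PGK1* and *PGK2* did not differ in a steady direction, with a mean of -0.04 ± 0.32 (SD, n = 6) and *PGK1* higher in 3 of 6 samples.

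**Figure D5:**
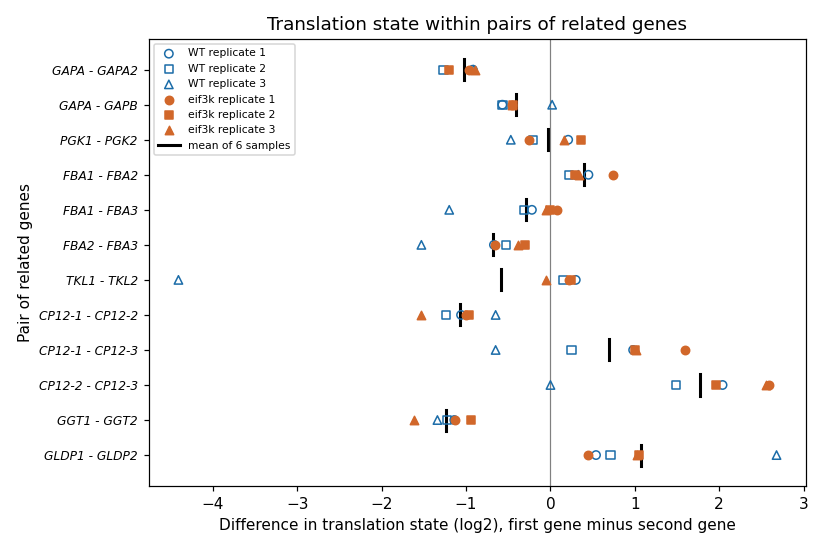
Difference in log2 translation state between related genes (first minus second gene, horizontal axis) in each of the 6 samples (symbols) with the mean (vertical bar), for 12 pairs. *GAPA* lies below *GAPA2* and *GGT1* below *GGT2* in all 6 samples, while the *PGK1* and *PGK2* difference scatters about 0.

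None of the further genes of the pathways was called between the genotypes in limma in any of the 4 measures, and none had an unadjusted p under 0.05 in TL. Of 9 Rubisco assembly and folding genes, 7 had a higher mean TL in *eif3k*, with a median difference of 0.26 that was -0.11 without WT replicate 3. The smallest p were those of *CPN60A1*, a chaperonin subunit, with a difference of 0.47 (SE 0.25), and of *CPN20*, a co-chaperonin, with 0.36 (SE 0.19). Without WT replicate 3 these differences were 0.33 and 0.175. Of 17 transporters and other photorespiratory genes, 15 were higher, with a median of 0.32 that was 0.10 without WT replicate 3. Here *MTLPD2*, a lipoamide dehydrogenase, with 0.67 (SE 0.31), and *TPT*, the triose phosphate translocator, with 1.05 (SE 0.68), had the smallest p, with 0.36 and 0.34 without WT replicate 3.

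Of 13 cytosolic counterparts of the chloroplast enzymes, 10 had a higher mean TL in *eif3k*, with a median of 0.32 that was 0.04 without WT replicate 3. The smallest p were those of *RPI1* (-0.14, SE 0.08), a ribose phosphate isomerase, and *RPE2* (-0.12, SE 0.07), a ribulose phosphate epimerase. Without WT replicate 3 these differences were -0.205 and -0.09. *RPI1* was dim, with a log2 NP signal of 2.87 in every sample. Its PL signals were 3.17, 2.98 and 2.87 in WT and 2.87 in every *eif3k* sample. In WT replicate 3 the median TL was -0.98 for the cytosolic counterparts, -0.40 for the transporters and other photorespiratory genes and 0.11 for the Rubisco assembly genes, against -1.18 for the 35 mRNAs. In the other 5 samples these medians were 0.00 to 0.34, 0.27 to 0.41 and 0.62 to 0.91.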

How the data were processed

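The authors hybridized 12 samples to ATH1 arrays, 3 for each genotype and fraction, and deposited 1 log2 signal for each probe set and array, after background correction and normalization. The submitters' processing notes name GCRMA and the methods of the study RMA, and for the version and the genome build the entry is "not given in the sources used here". TL was computed as log2 PL minus log2 NP, which matched the log2 TL that the authors deposited to within 0.01. Day length also differs, with a long day in the labels and continuous light in the methods, and this could not be settled.

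After 64 control probe sets had been left out, 22746 were fitted in limma 3.58.1 with lmFit and eBayes in R 4.3.3. Tests were two-sided, and Benjamini-Hochberg adjustment ran over every probe set. A call needed a log2 change of 1 or more and an adjusted p under 0.05. Prior degrees of freedom were 0.43 to 0.56, so moderation was weak. The fit was tested on simulated data. Paralog pairs were compared with an exact sign-flip permutation test. Plots used matplotlib 3.10.9. Arrays carry no read depth, and the number of replicates limits precision. Part of the spread between samples that the p-values measure may be technical.

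Over all probe sets, the deviations of same-numbered WT and *eif3k* samples from the mean of their group had correlations of 0.13, 0.23 and 0.23 for TL and above 0.1 in every measure. Equal numbers were taken as pairs from this check, and a shared array batch could also give such values. The main fit used no block.

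The mRNAs, gene lists, pairs and tests were chosen with earlier results of these data known. Values in every sample were given for 18 genes listed by function, for the 3 mRNAs of smallest p in each comparison between genotypes, for the 3 of highest and 3 of lowest mean TL, for pairs of smallest adjusted p and for any called mRNA. *GOX1*, on that list, was not found. Alternatives were the replicate number or array batch as a block, dim probe sets (mean log2 signal under 5) left out, a further quantile normalization, probe sets of several transcripts left out, another moderation, no minimum change, the deposited TL, the interaction over 12 arrays, each sample or replicate number left out, and, added after the data were seen, centring on the brighter probe sets. Coordinates and sequences were not used here.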

Additional observations from a re-analysis of the deposited data

How the results depend on the processing

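Of the results that rest on a test or a list, 158 values kept their call or moved by less than the spread between replicates under an alternative, and 35 moved further. No alternative called a mRNA between the genotypes in TL. With the replicate number as a block, which treats equal numbers as pairs, the mRNAs called in TL against 0 went from 1 to 0 in WT and from 2 to 0 in *eif3k*, and no other call changed. Against the same 1 and 2, leaving out dim probe sets gave 4 and 6, quantile normalization 3 and 4, the other moderation 0 and 1, and centring on the brighter probe sets, chosen after seeing the data, 4 and 6. Without a minimum change 2 were called in WT, and with the array batch as a block 1 in *eif3k*. Leaving out samples gave 0 to 8 in either genotype, with 8 where WT replicate 3 was left out. The median TL of the mRNAs in *eif3k* was 0.43, and was 0.53 with dim probe sets left out, 0.35 after centring and 0.395 to 0.515 with samples left out. Quantile normalization raised the paralog pairs with an adjusted p under 0.05 from 0 to 8, which is set by how many pairs share the smallest p, and with 1 sample left out none can reach it, since 5 samples allow no exact p below 0.0625. After centring, the mean TL of *RBCS1A* in *eif3k* was -0.027 (0.06 before).

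The sign of a TL difference between the genotypes, none of them called, turned without WT replicate 3 for 13 of the 35 mRNAs. Quantile normalization turned it to -0.021 for *FBA3*, -0.11 for *CP12-1* and -0.10 for *GLDH1*, and centring turned it to -0.03 for *TKL2*, -0.16 for *CP12-1* and -0.13 for *GLDH1*. With samples left out the difference ran from -0.018 to 0.97 for *GAPA2*, -0.063 to 1.15 for *GAPB*, -0.10 to 0.67 for *TPI*, -0.085 to 0.42 for *FBA3*, -0.16 to 1.65 for *CFBP1*, -0.11 to 0.37 for *TKL2*, -0.17 to 2.18 for *RPE*, -0.13 to 0.14 for *CP12-1* and -0.26 to 0.43 for *CP12-2*. It ran from -0.045 to 2.615 for *GOX2*, -0.13 to 0.84 for *GLYK*, -0.055 to 1.95 for *GLDP2*, -0.20 to 0.25 for *GLDH1* and -0.15 to 1.33 for *GLDT*. With 1 sample left out of a group of 3, the fit pools the spread of both genotypes. Precision is limited by 3 samples per genotype, and *TKL2* and *CP12-3* had dim signals.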
